A study of Mus musculus with 8 samples.

Results

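Of the 24112 genes listed in each library, 39 encode the hnRNP, SR and other proteins of pre-mRNA splicing described here. They comprise 17 hnRNP genes, Syncrip (hnRNP Q) among them, the polypyrimidine tract binding genes Ptbp1 and Ptbp3, 8 SR protein genes, 5 SR-related genes, 4 genes of 3′ splice site recognition, and the regulators Celf2, Mbnl1 and Tardbp. They were chosen by name, with earlier results of these data known, and matched through mouse symbols to the Entrez identifiers of the tables, where all 39 were found. The study removed Traf6, which encodes a ubiquitin ligase that relays Toll-like and interleukin-1 receptor signals to NF-κB, from blood cells and asked how blood stem cells fare without it. Libraries were made from lineage-negative Sca1+ Kit+ (LSK) cells, the marrow fraction enriched for stem and early progenitor cells, sorted from C57BL/6 mice reconstituted by transplantation. Donor marrow was either Traf6-/-;Vav-Cre+ (KO, 4 libraries) or Vav-Cre+ alone (WT, 4 libraries), so both groups carried the Cre recombinase, whose Vav promoter is active throughout the blood lineage. The labels give neither the age of the mice nor whether each library stands for its own animal. The p-values below therefore rest on a spread from library to library that could be technical.

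Heterogeneous nuclear ribonucleoproteins (hnRNPs) coat nascent transcripts and mostly repress nearby splice sites, whereas SR proteins, named for their serine- and arginine-rich domain, bind exonic enhancers and recruit the spliceosome. U2AF and the SF3B complex then recognise the 3′ splice site and the branch point. HNRNPA1 is a known substrate of TRAF6 in blood stem cells, and SF3B1, SRSF2, U2AF1 and ZRSR2 are recurrently mutated in human myelodysplastic syndromes. The values below are messenger RNA levels of whole genes. They do not report on protein, ubiquitination or the choice of exons.

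Traf6 was lower in every KO library. Its level was 0.613, 0.818, 0 and 0.00721 RPKM (reads scaled to gene length and to library depth) in KO1 to KO4, against 14.9, 3.52, 9.40 and 7.10 RPKM in WT1 to WT4. The groups did not overlap (exact permutation test, 2-sided, p = 0.0286, the least that the 70 ways of splitting the libraries allow). On the log2(RPKM + 1) scale the difference was -2.75 ± 0.53, with a limma adjusted p of 0.341. Estimated depth ranged from 22.5 to 30.7 megareads in KO and from 19.3 to 24.8 megareads in WT, and 9055 to 13689 genes were listed above 0 in KO against 11169 to 12970 in WT. KO3 and KO4 listed the fewest genes and were run in lane 5 of the sequencer, whereas KO1, KO2 and all WT libraries were run in lane 4. A difference of lane and a difference of these KO libraries as samples cannot be told apart. Kit was at 50.6 to 113 RPKM in KO and 73.8 to 83.1 RPKM in WT, and Ly6a (Sca-1) at 6.53 to 10.9 RPKM in KO and 7.31 to 11.8 RPKM in WT. The 8 LSK and stem cell genes summed to 428.6 to 532.5 RPKM in KO and 575.6 to 630.3 RPKM in WT, without overlap, while the 4 monocyte genes summed to 18.1 to 125.9 RPKM in KO and 41.8 to 82.3 RPKM in WT. Among those 4, Csf1r lay wholly higher in KO (6.04 to 22.0 RPKM, against 0.542 to 5.79 RPKM in WT) and Ccr2 wholly lower (5.93 to 36.3 RPKM, against 37.3 to 57.1 RPKM in WT). Of the B cell markers, Cd79a, Pax5 and Ms4a1 were listed at 0 in all 8 libraries, as was Cd3g of T cells. Cd79b, the 1 of 6 B cell genes above 1 RPKM in any library, was at 6.65 to 16.1 RPKM in KO. In WT it was at 4.78 to 16.3 RPKM. Of the 6 T and NK cell genes, 2 passed 1 RPKM somewhere, Cd3d (up to 3.42 RPKM, in WT1) and Ncr1 (up to 2.99 RPKM, in WT4). The 7 granulocyte genes found, 6 of them above 1 RPKM in some library, summed to 1637 to 4922 RPKM in KO and 388 to 1288 RPKM in WT, nearly all from Mpo and Elane. The sum therefore says little of the rest of the list. Itgam lay wholly higher in KO (5.92 to 22.8 RPKM, against 0.707 to 2.76 RPKM in WT). S100a8 and S100a9 overlapped between groups, with their highest values in KO (15.1 and 35.7 RPKM). Ngp reached 10.3 RPKM in WT2 and at most 0.0382 RPKM in KO, and Camp at most 0.653 RPKM in any library. The part of these marker differences in the values below was not tested, and in bulk RNA fewer cells of a type and less RNA per cell cannot be told apart.

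The 39 splicing factor genes were detected in every library, most of them at high levels. None was listed at 0 anywhere, and all lay above the median gene tested (12.5 RPKM on average over the 8 libraries). The median member stood at the 95.2 percentile of the 11276 genes tested, and the lowest at the 58.1 percentile. Single values ranged from 8.55 RPKM for Zrsr2 in KO2 to 931 RPKM for Hnrnpa1 in KO3. On average 21 members lay above 100 RPKM and 6 under 25 RPKM. The most abundant were Hnrnpa1, Hnrnpa2b1 and Hnrnpl. The least abundant was Zrsr2, at 16.6 ± 7.11 RPKM in KO and 15.7 ± 4.56 RPKM in WT (SD, n = 4 each), which encodes the 3′ splice site factor of the minor, U12-type introns. Together the 39 genes held 1.18% to 1.34% of all RPKM in KO libraries and 1.27% to 1.48% in WT libraries, ranges that overlap.

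**Figure D1:**
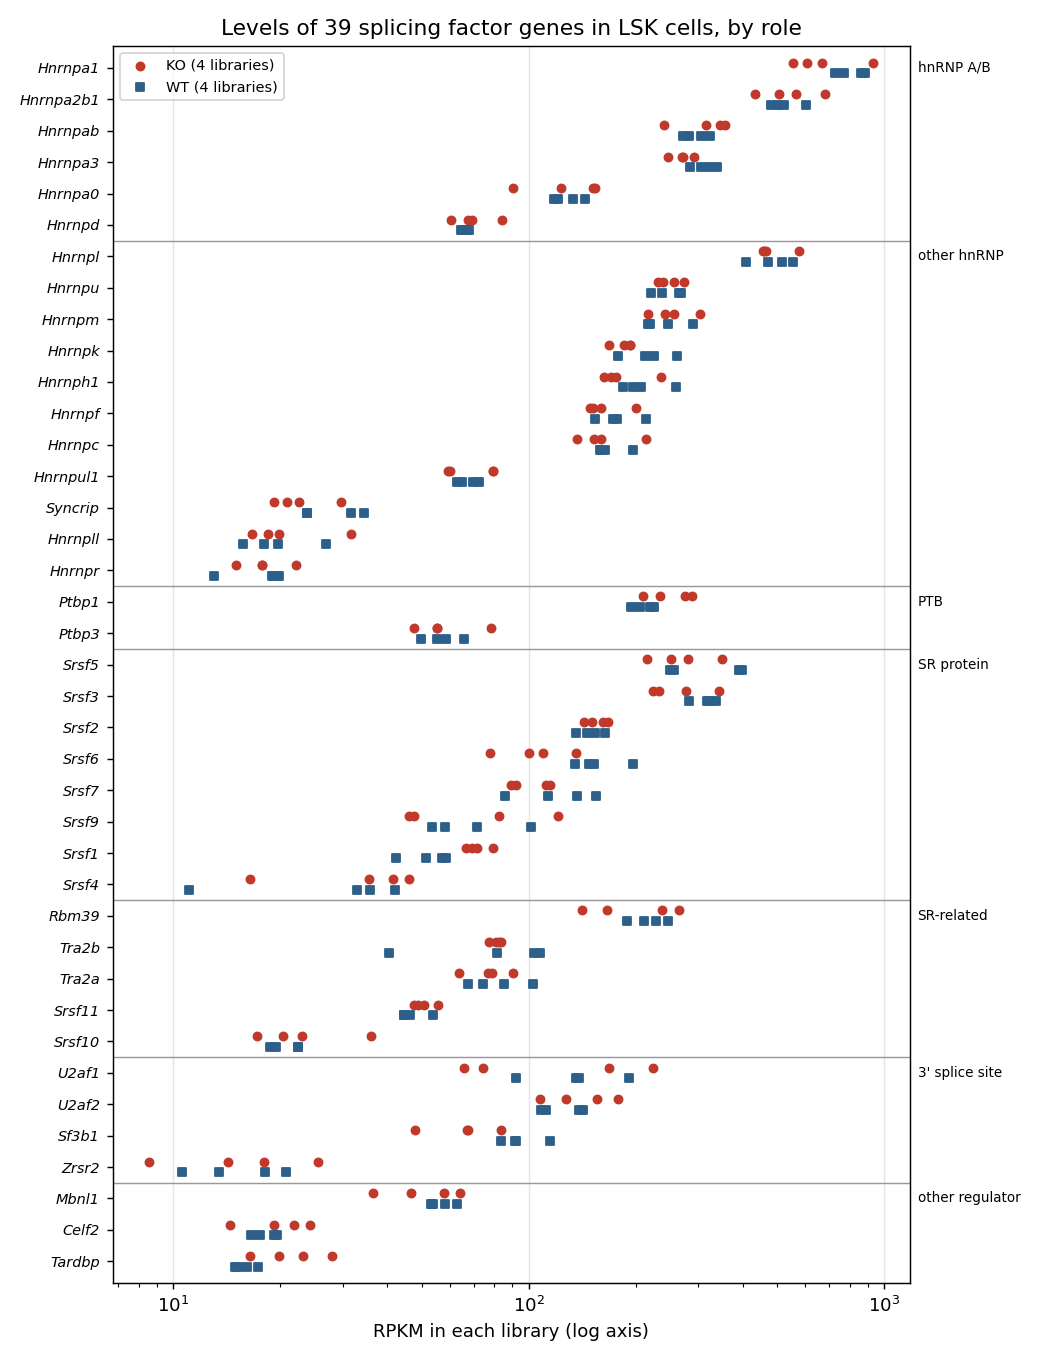
RPKM of each of the 39 genes in each library on a log axis, with KO as circles above WT as squares and genes grouped by role. The groups overlap in every gene but Srsf1, and levels span from 8.55 to 931 RPKM.

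No member passed the test. Values were compared as log2(RPKM + 1) with limma over all 11276 genes that reached 1 RPKM in at least 4 libraries, and all 39 members were among them. With an adjusted p under 0.05, limma called 0 of 39 members and 0 of all genes tested (0%). At an unadjusted p under 0.05 there were 3 members (against 7.51% of all genes), 1 higher in KO (2.56%, against 2.77% of all genes) and 2 lower (5.13%, against 4.74% of all genes), so the shares lie near the background. The members' smallest adjusted p was 0.627. Their log2 differences, KO minus WT, ranged from -0.59 to 0.45, 21 positive and 18 negative, with a median of 0.01, where all genes tested had a median of -0.14. That standing depended on scaling: after quantile normalization the medians were -0.07 for the members and 0.00 for all genes, and the split of members was 13 positive and 26 negative. The 95% intervals of 36 members lay within a 2-fold difference in either direction, and those of 15 lay within 1.5-fold. The other 3 were Srsf4, Srsf6 and U2af1.

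**Figure D2:**
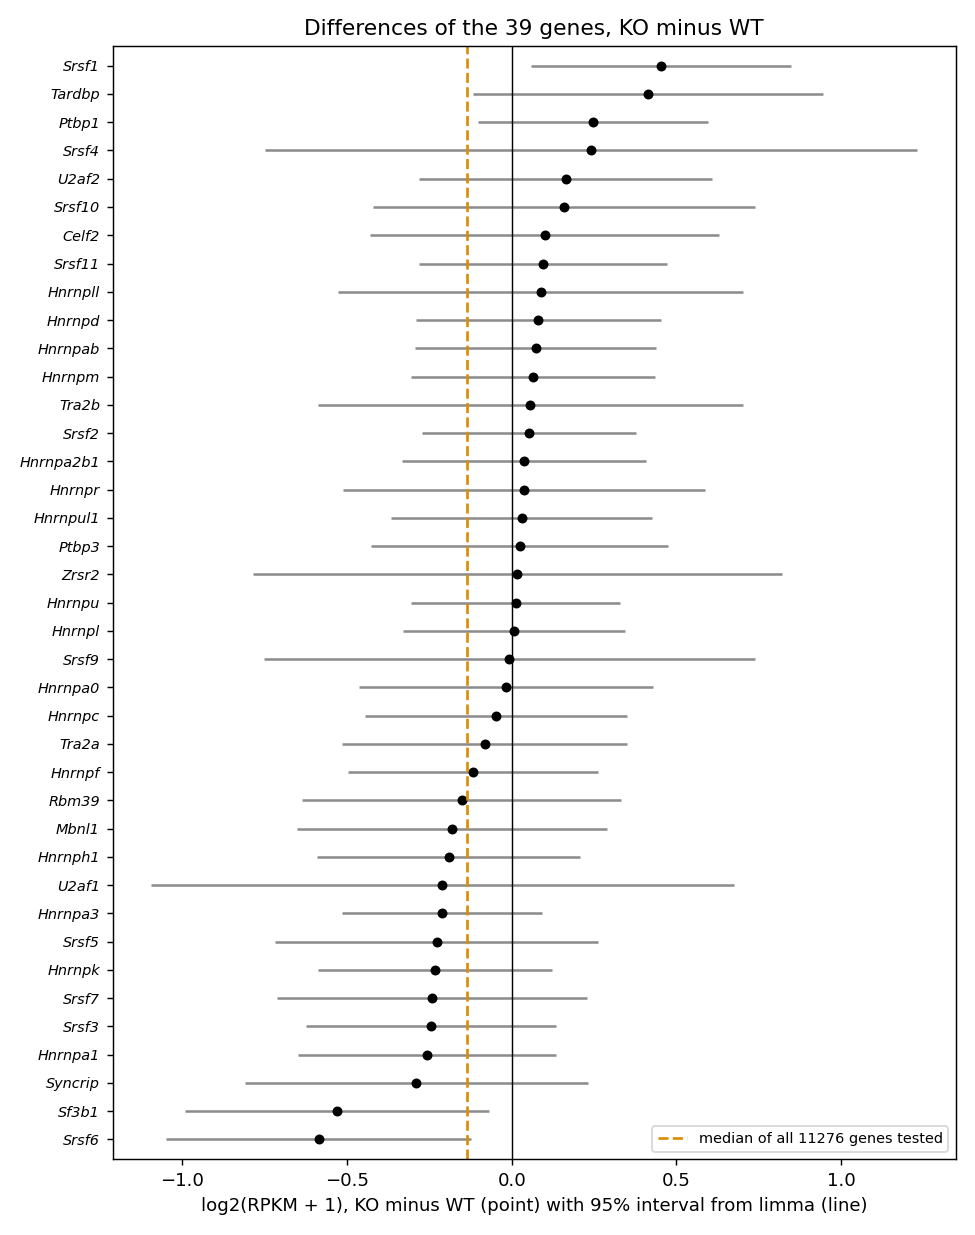
Log2 difference of each of the 39 genes, KO minus WT, as a point with its 95% limma interval as a line, ordered by size. Intervals exclude 0 in Srsf1, Srsf6 and Sf3b1, none of which passes once p is adjusted over all genes, and the dashed line marks the median of all genes tested at -0.14.

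The sequences upstream of 4 genes that the comparison turns on, Hnrnpa1 as the TRAF6 substrate and the 3 members of smallest p, are shown to place these genes among promoters of their kind. They are the 250 bases before the transcript start from RefSeq (build GRCm38.p6, whereas the submitters' notes name mm9 for the values), 5′ to 3′ on the strand of the gene, with capitals marking GC boxes (GGGCGG) and CCAAT boxes (CCAAT) on either strand.
Hnrnpa1, chr15:103240147-103240396, plus strand: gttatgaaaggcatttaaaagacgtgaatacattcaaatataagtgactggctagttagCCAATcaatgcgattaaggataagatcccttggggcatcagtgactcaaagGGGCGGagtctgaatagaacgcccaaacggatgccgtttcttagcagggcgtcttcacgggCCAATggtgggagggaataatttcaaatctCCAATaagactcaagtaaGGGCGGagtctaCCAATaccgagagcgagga
Srsf1, chr11:88047123-88047372, plus strand: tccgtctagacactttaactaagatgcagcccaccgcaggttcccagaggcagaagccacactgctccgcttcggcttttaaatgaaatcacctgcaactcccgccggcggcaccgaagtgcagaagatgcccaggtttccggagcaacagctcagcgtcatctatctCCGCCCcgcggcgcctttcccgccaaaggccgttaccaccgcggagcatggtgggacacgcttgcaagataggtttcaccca
Srsf6, chr2:162931258-162931507, plus strand: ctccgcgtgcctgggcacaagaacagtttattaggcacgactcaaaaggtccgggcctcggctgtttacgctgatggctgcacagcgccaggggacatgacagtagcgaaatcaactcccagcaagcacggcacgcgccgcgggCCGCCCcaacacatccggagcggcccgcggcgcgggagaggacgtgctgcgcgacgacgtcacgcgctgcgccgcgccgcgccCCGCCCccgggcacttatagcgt
Sf3b1, chr1:55027479-55027728, minus strand: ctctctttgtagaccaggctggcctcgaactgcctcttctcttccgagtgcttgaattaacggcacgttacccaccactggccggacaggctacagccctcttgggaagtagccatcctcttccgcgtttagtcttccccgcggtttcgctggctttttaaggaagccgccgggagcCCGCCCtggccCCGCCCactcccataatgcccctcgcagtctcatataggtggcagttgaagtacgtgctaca
Hnrnpa1 alone of the 4 held CCAAT boxes, 4 of them beside 2 GC boxes, whereas Srsf1 held 1 GC box and Srsf6 and Sf3b1 held 2 each. The table matched 36 members with 55 starts, so starts of one gene may share sequence, and had no entry for Hnrnpll, Ptbp3 and U2af2. Of these starts 40 (72.7%) held a GC box, against 57.5% of the starts of all genes tested and 32.7% of all starts in the table. CCAAT stood in 25 (45.5%), against 35.8% and 33.8%, and never overlapped a GC box. TATAAA stood in 5 (9.09%), against 6.34% and 12.4%. The NRF1 motif stood in 9 (16.4%), against 8.48% and 3.74%, and the ETS motif CCGGAAGT in 6 (10.9%), against 6.18% and 2.88%, each on either strand. The median number of CpG pairs in the window was 23 for the members, 16 for the genes tested and 6 for all starts. The NF-κB consensus was found in 3 of 55 starts (5.45%), those of Hnrnpf, Rbm39 and Tardbp, against 8.76% of the starts of genes tested and 7.25% of all starts. These matches describe letters in a window and not binding.

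Hnrnpa1 encodes the TRAF6 substrate, an hnRNP that represses exon inclusion. Its level was 552, 606, 931 and 669 RPKM in KO1 to KO4, against 859, 728, 882 and 771 RPKM in WT1 to WT4. Of the KO libraries 3 lay below all WT libraries, and KO3 lay above them all. The means were 689.7 ± 168 RPKM in KO and 810.1 ± 72.4 RPKM in WT (SD, n = 4 each), and the log2 difference was -0.26 ± 0.18 (SE, 95% interval -0.65 to 0.13, limma adjusted p = 0.726). On leaving out 1 library at a time, the difference ranged from -0.41 to -0.16. The value of -0.41 came without KO3 (limma adjusted p = 0.447), the 1 fit of these 8 with an unadjusted p under 0.05. In the lane 4 libraries alone, which also lack KO3, the difference was -0.48 ± 0.15 (limma adjusted p = 0.317). Hnrnpa2b1, the A/B family member next in abundance, was at 681, 504, 564 and 432 RPKM in KO and 602, 479, 521 and 502 RPKM in WT. The WT values lay within the range of the KO values. The ratio of Hnrnpa1 to Hnrnpa2b1 was 0.811, 1.202, 1.65 and 1.55 in KO1 to KO4 and 1.43 to 1.69 in WT. The other 4 genes of the A/B group had log2 differences between -0.21 (Hnrnpa3) and 0.08 (Hnrnpd). Hnrnpa3 was at 246 to 292 RPKM in KO and 284 to 339 RPKM in WT, and the highest KO library, KO1, lay above WT4 alone. Hnrnpd (AUF1, which also acts in mRNA decay) varied little among WT libraries, at 64.6 to 67.8 RPKM, and more among KO libraries, at 60.6 to 84.0 RPKM. Hnrnpab was at 239.8 to 355.7 RPKM in KO and 272 to 322 RPKM in WT (0.07 ± 0.16), and Hnrnpa0 at 90.4 to 153.9 RPKM in KO and 118 to 143.7 RPKM in WT (-0.02 ± 0.20). For both, KO spread wider than WT and enclosed it. Genes of the hnRNP A family have processed copies elsewhere in the genome, so reads may have been split or lost in counting.

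The other hnRNP genes showed small differences. Hnrnpl, whose product binds CA-rich sequences, was at 576, 458, 457 and 466 RPKM in KO and 555, 407, 515 and 472 RPKM in WT, a log2 difference of 0.01 ± 0.15. Hnrnpu, a nuclear scaffold protein, was at 273, 256, 239 and 231 RPKM in KO and 237, 221, 268 and 265 RPKM in WT (0.01 ± 0.14). All 11 genes of this group overlapped between KO and WT, and their log2 differences ran from -0.29 (Syncrip) to 0.09 (Hnrnpll). Hnrnpk, which binds C-rich sequences, was at 168 to 193 RPKM in KO, a narrow range, and at 178 to 260 RPKM in WT (-0.23 ± 0.16). Hnrnph1 and Hnrnpf, binders of G-rich tracts, had differences of -0.19 ± 0.18 and -0.12 ± 0.17. Syncrip stood at 23.1 ± 4.59 RPKM in KO and 28.4 ± 5.43 RPKM in WT (SD, n = 4 each), and its paralog Hnrnpr at 18.2 ± 2.99 RPKM in KO and 17.8 ± 3.16 RPKM in WT. Hnrnpll, a relative of Hnrnpl that acts in lymphocytes, was at 16.6 to 31.6 RPKM in KO and 15.8 to 26.8 RPKM in WT. Hnrnpc, which binds uridine tracts, was at 136.4 to 214.0 RPKM in KO and 158.7 to 196.4 RPKM in WT (-0.05 ± 0.18). Hnrnpm was at 216.7 to 302.2 RPKM in KO and 215.9 to 290.4 RPKM in WT (0.07 ± 0.17), and Hnrnpul1, a relative of Hnrnpu, at 59.3 to 79.5 RPKM in KO and 62.7 to 72.7 RPKM in WT (0.03 ± 0.18). Their KO and WT ranges overlapped nearly throughout.

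Ptbp1 represses exons through pyrimidine-rich tracts and was at 288, 276, 209 and 235 RPKM in KO1 to KO4, against 225, 193, 206 and 219 RPKM in WT1 to WT4. KO1, KO2 and KO4 lay above all WT libraries and KO3 among them. The log2 difference was 0.25 ± 0.16 (limma adjusted p = 0.709), and 0.42 ± 0.15 in lane 4 alone (limma adjusted p = 0.372). Ptbp3, the paralog first described in blood cells, was at 47.5, 55.3, 78.2 and 55.3 RPKM in KO and 65.8, 55.1, 58.7 and 49.9 RPKM in WT (0.02 ± 0.20). Its groups overlapped, and KO held both the lowest and the highest value.

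Within the SR protein group, Srsf1 and Srsf6 had the 2 smallest p, with differences of opposite sign that did not pass the adjusted threshold. Srsf1, the founding SR protein, was at 69.1, 66.5, 79.5 and 71.7 RPKM in KO1 to KO4, against 58.6, 42.3, 51.6 and 57.0 RPKM in WT1 to WT4. It was the one member whose groups did not overlap, 1 of 39 (2.56%), where KO lay wholly above WT in 2.05% of all genes and wholly below in 3.88% (5.92% in either direction). Its means were 71.7 ± 5.65 RPKM in KO and 52.4 ± 7.36 RPKM in WT (SD, n = 4 each), 1.37-fold in KO, with a log2 difference of 0.45 ± 0.18 (SE, 95% interval 0.06 to 0.85, limma adjusted p = 0.634). In the lane 4 libraries alone the Srsf1 difference was smaller, at 0.38 ± 0.20 (limma adjusted p = 0.519). Both lane 5 libraries, KO3 and KO4, lay above KO1 and KO2. On leaving out 1 library at a time, the Srsf1 difference ranged from 0.36 to 0.51. Its unadjusted limma p was under 0.05 in 5 of these 8 fits, and not without KO3, WT2 or WT3. Srsf6 was at 109.9, 100.4, 77.6 and 135.7 RPKM in KO1 to KO4, against 196.6, 134.5, 152.6 and 148.1 RPKM in WT1 to WT4. KO4 lay just above WT2, and the other 3 KO libraries lay below all WT libraries. The means were 105.9 ± 24.0 RPKM in KO and 157.9 ± 26.9 RPKM in WT (SD, n = 4 each), 0.670-fold in KO, with a log2 difference of -0.59 ± 0.21 (95% interval -1.05 to -0.12, limma adjusted p = 0.627). With 1 library left out the Srsf6 difference ranged from -0.71 to -0.45. Its unadjusted limma p was under 0.05 in 7 of 8 such fits, all but that without WT1. The ratio of Srsf1 to Srsf6, chosen after the values were seen, was 0.629, 0.662, 1.02 and 0.528 in KO1 to KO4 and 0.298 to 0.385 in WT, without overlap. The genes were picked for differences of opposite sign, so the separation of this ratio follows largely from that choice and adds nothing to them. Leaving out a library can only keep or raise the number of members without overlap. Of 39, it was 5 without KO3 (11% of all genes), 4 without KO4 (12% of all genes), 3 without KO1 (8.02%) and 1 without KO2 (9.39%). It was 4 without WT2 (8.89% of all genes), 3 without WT4 (9.99%), 2 without WT1 (8.27%) and 1 without WT3 (8.69%). All of these shares of all genes exceed the 5.92% of the full comparison, a change that could go only this way.

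The other 6 SR protein genes had no unadjusted p under 0.05 with limma, and their groups overlapped. Srsf5, which like Srsf6 carries a second, degenerate RNA recognition motif, was at 251, 215, 349 and 280.2 RPKM in KO and 399, 250.3, 389 and 256 RPKM in WT (-0.23 ± 0.22). WT held 2 high and 2 low libraries, and every KO value lay below the high pair. Srsf3 was at 223, 232, 344 and 277 RPKM in KO and 336, 324, 282 and 318 RPKM in WT (-0.24 ± 0.17, limma adjusted p = 0.730), with KO3 above all WT libraries and the other 3 below them. Its close relative Srsf7 was at 88.9 to 115 RPKM in KO and 85.8 to 155 RPKM in WT (-0.24 ± 0.21). Srsf2 was steady, at 143 to 167.5 RPKM in KO and 136 to 164 RPKM in WT (0.05 ± 0.15). Srsf4 and Srsf9 varied more among libraries. Srsf4 had 1 low library in each group, 16.5 RPKM in KO4 and 11.1 RPKM in WT2, while the others lay at 32.9 to 46.0 RPKM (0.24 ± 0.44). Srsf9 was at 121, 82.4, 47.7 and 46.1 RPKM in KO and 53.4, 58.0, 71.4 and 101.3 RPKM in WT (-0.01 ± 0.33).

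Of the SR-related genes, which share the serine- and arginine-rich domain but stand outside the classical family, all 5 overlapped between groups. Rbm39, a splicing factor related to the large U2AF subunit, was at 166.5, 141.6, 236.3 and 265.3 RPKM in KO1 to KO4, against 228.6, 246.8, 189.4 and 211.0 RPKM in WT1 to WT4. KO1 and KO2 lay below all WT libraries and KO4 above them all. The log2 difference was -0.15 ± 0.22 over all libraries and -0.50 ± 0.18 in lane 4 alone (limma adjusted p = 0.852 and 0.361). Tra2b, an activator that binds exonic enhancers, was nearly constant in KO at 82.7, 83.6, 80.7 and 77.3 RPKM, and spread in WT at 107.6, 40.4, 81.2 and 103.7 RPKM. Its relative Tra2a, which binds the same kind of enhancer, was at 63.7 to 90.4 RPKM in KO and 67.5 to 102.7 RPKM in WT (-0.08 ± 0.19). Srsf10 was at 17.2 to 35.9 RPKM in KO and 18.7 to 22.5 RPKM in WT, and Srsf11 at 47.7 to 55.4 RPKM in KO and 44.7 to 53.9 RPKM in WT.

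Among the genes of 3′ splice site recognition, Sf3b1, whose product contacts the branch point, was at 67.2, 67.7, 47.9 and 83.8 RPKM in KO1 to KO4, against 114.4, 91.8, 92.1 and 83.7 RPKM in WT1 to WT4. KO4 and WT4 had nearly the same value, which is the whole overlap of the groups. The means were 66.6 ± 14.7 RPKM in KO and 95.5 ± 13.2 RPKM in WT (SD, n = 4 each), 0.698-fold in KO, with a log2 difference of -0.53 ± 0.21 (95% interval -0.99 to -0.07, limma adjusted p = 0.634). With 1 library left out the Sf3b1 difference ranged from -0.65 to -0.38. Its unadjusted limma p was under 0.05 in 5 of 8 such fits, and not without KO3, WT1 or WT3. U2af1, the small U2AF subunit that reads the AG of the 3′ splice site, was at 223.2, 167.9, 65.6 and 74.4 RPKM in KO and 136.1, 91.9, 190.8 and 138.4 RPKM in WT. It spread 3.40-fold among KO libraries, wider than any other member within KO, so its difference of -0.21 ± 0.40 is loosely bounded (-1.09 to 0.67). The large subunit gene U2af2 was at 178.5, 155.2, 126.9 and 107.4 RPKM in KO and 111.8, 108.3, 138.5 and 142.3 RPKM in WT (0.16 ± 0.20). Zrsr2 has a near-identical relative, Zrsr1, and its reads may be shared with it (0.02 ± 0.36).

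Mbnl1 and Celf2 encode regulators that often act on the same exons in opposite senses. Mbnl1 was at 36.5, 46.7, 57.7 and 64.0 RPKM in KO and 62.8, 58.2, 53.8 and 53.2 RPKM in WT (-0.18 ± 0.21). Celf2 was at 14.5, 19.2, 24.3 and 21.8 RPKM in KO and 17.5, 19.6, 19.3 and 16.6 RPKM in WT (0.10 ± 0.24). Their groups overlapped. Tardbp encodes TDP-43, which represses cryptic exons, and was named after its values were seen. Its level was 23.1, 19.8, 27.9 and 16.5 RPKM in KO, against 14.9, 17.4, 15.2 and 16.1 RPKM in WT, where 3 KO libraries lay above all WT libraries (0.41 ± 0.24, limma adjusted p = 0.696).

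**Figure D3:**
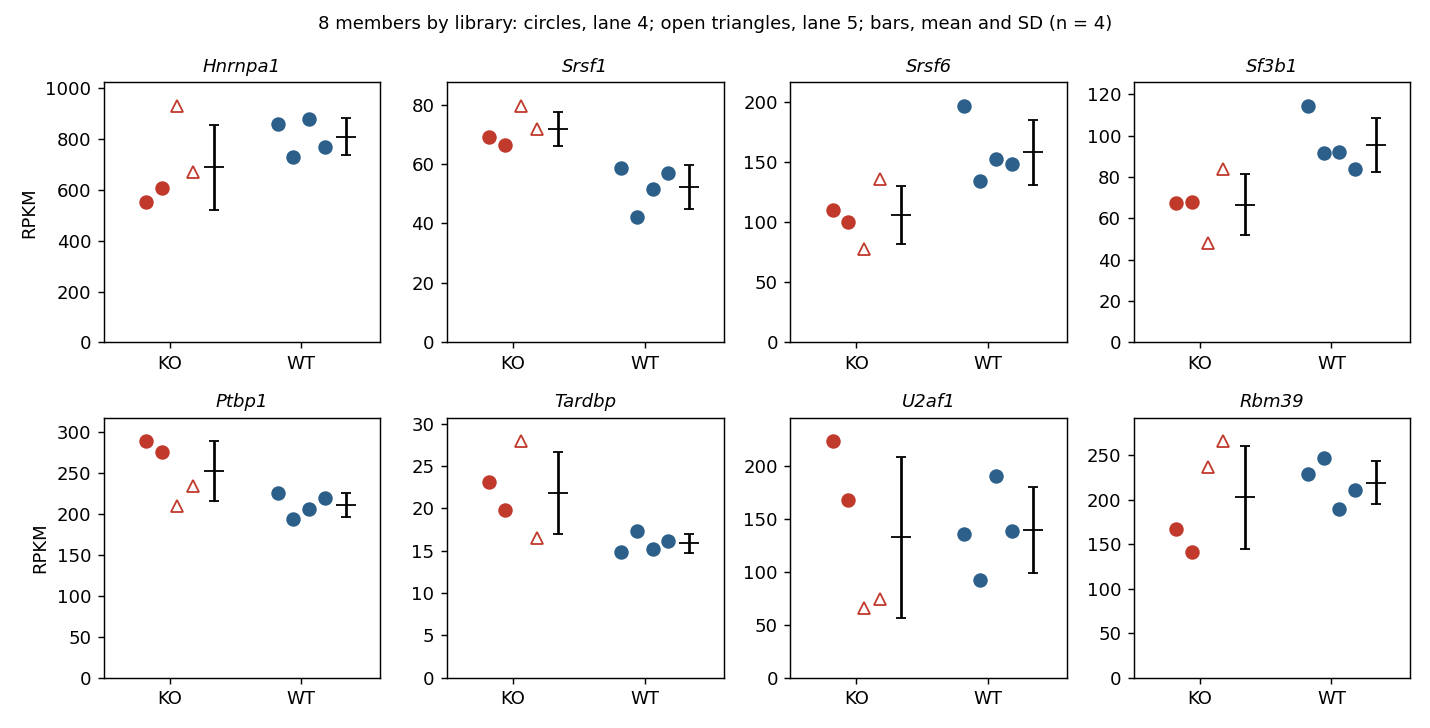
RPKM of 8 members in each library, KO left of WT, with circles for lane 4, open triangles for lane 5, and bars for the mean and SD of 4 libraries. Srsf1 separates the groups, and Srsf6 and Sf3b1 nearly do. In Hnrnpa1, Srsf1, Ptbp1, U2af1 and Rbm39 the KO libraries of lane 5 do not overlap those of lane 4.

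KO libraries split by lane in many of these genes. In 22 of 39 members (56.4%) KO3 and KO4 both lay on one side of KO1 and KO2, against 43.7% of all genes tested. The 12 members higher in the lane 5 libraries included Hnrnpa1, Srsf3, Srsf5, Rbm39 and Mbnl1, and the 10 lower included U2af1, U2af2, Srsf9, Ptbp1 and Hnrnpa0. With lane 4 alone, KO1 and KO2 lay below all WT libraries in 7 members (17.9%, against 13.5% of all genes), namely Hnrnpa1, Hnrnph1, Srsf3, Srsf6, Rbm39, Sf3b1 and Mbnl1. They lay above all WT libraries in 6 members (15.4%, against 10.7% of all genes), namely Hnrnpa0, Hnrnpul1, Ptbp1, Srsf1, U2af2 and Tardbp. In either direction that is 13 of 39 members, where 24.2% of all genes separated. In that fit limma called 0 of 39 members at an adjusted p under 0.05 (0.0177% of all genes were called). At an unadjusted p under 0.05, 6 of 39 members were lower and 1 of 39 higher, where 6.04% and 4.95% of all genes were. These 7 were Hnrnpa1, Srsf3, Srsf6, Rbm39, Sf3b1 and Mbnl1 as lower and Ptbp1 as higher. A fit that weighted each library by how closely it followed its group gave KO2 a weight of 6.50, KO1 1.502, KO4 0.351 and KO3 0.137, and so leaned on KO2 for the KO values. In that fit limma called 1 of 39 members, Srsf6 (-0.62 ± 0.13, adjusted p = 0.0438), against 1.45% of all genes. At an unadjusted p under 0.05, 9 of 39 members were lower there, where 9.55% of all genes were, and 3 of 39 higher, where 8.13% of all genes were. With lane 4 alone and with weights, the share of members lower was thus above that of all genes, and the share higher below it. This was not tested. Hnrnpa1 missed the threshold there (-0.45 ± 0.11, adjusted p = 0.0559).

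The wider splicing machinery was counted from lists of 160 other genes, of which 154 were tested. limma called none of them at an adjusted p under 0.05, and at an unadjusted p under 0.05 there were 4 higher (2.6%, against 2.77% of all genes) and 3 lower (1.95%, against 4.74% of all genes). The median log2 difference was 0.05 for 38 genes of the U snRNP proteins, -0.10 for 22 partners of the branch site and U2, -0.07 for 21 catalytic and release factors, and -0.14 for 17 genes of the exon junction complex and nonsense-mediated decay. It was -0.26 for 10 kinases and import factors of SR proteins and -0.18 for 44 other hnRNP and splicing regulators, beside -0.14 for all genes tested. In the lane 4 libraries alone, where the median of all genes was -0.02, the median was 0.24 for the U snRNP proteins, and it turned positive for the branch site partners (0.17), the catalytic factors (0.12) and the exon junction and decay genes (0.07). It stayed negative for the SR protein kinases and import factors (-0.40) and the other regulators (-0.15). Of the 154 genes, KO lay wholly above WT in 3 (1.95%, against 2.05% of all genes), Sf3b3, Cherp and Txnl4a. It lay wholly below in 1, Hnrnph2, against 3.88% of all genes, so separation was no more common here than among all genes. Sf3b3, a subunit of the SF3B complex with Sf3b1, was at 119, 116, 116 and 123 RPKM in KO and 91.9, 77.1, 87.2 and 93.5 RPKM in WT, without overlap (0.44 ± 0.15, limma adjusted p = 0.606). Sf3b1 and Sf3b3 thus differed in opposite directions, neither past the threshold. Cherp, a U2-associated factor, was at 19.0 to 32.9 RPKM in KO and 15.0 to 18.9 RPKM in WT, without overlap (0.53 ± 0.24), and Txnl4a, of the U5 particle, at 62.2 to 79.9 RPKM in KO and 50.2 to 61.7 RPKM in WT (0.34 ± 0.17). Hnrnph2, a paralog of Hnrnph1, was at 27.5 to 35.6 RPKM in KO and 38.5 to 55.0 RPKM in WT (-0.38 ± 0.20). The 2 most abundant genes of each of these lists were Snrpg and Snrpe, Ddx39b and Sf3b2, Bcas2 and Bud31, Rnps1 and Upf3b, Clk1 and Srpk1, and Ddx5 and Pcbp1, and all overlapped between groups. Ddx5, an RNA helicase, was at 435 to 688 RPKM in KO and 643 to 784 RPKM in WT (-0.34 ± 0.17), and was the one gene of these lists called with library weights (-0.53 ± 0.11, limma adjusted p = 0.0476). Snrpg, an Sm ring protein, was at 335 to 507 RPKM in KO and 322 to 515 RPKM in WT. The SR protein kinase gene Srpk1 was at 49.0 to 52.2 RPKM in KO and 21.2 to 58.1 RPKM in WT, and Clk1, a kinase that acts on SR proteins in the nucleus, at 25.9, 30.1, 81.9 and 64.7 RPKM in KO1 to KO4 and 38.2 to 74.3 RPKM in WT.

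Arhgap1 encodes a GTPase-activating protein for Cdc42 and is a known splicing target of HNRNPA1 downstream of TRAF6. Its gene level was 11.6, 16.7, 25.8 and 16.1 RPKM in KO and 12.9, 14.9, 17.04 and 14.7 RPKM in WT (0.18 ± 0.28, limma adjusted p = 0.872). Cdc42 was at 87.4, 102.2, 77.9 and 102.6 RPKM in KO and 116.9, 110.7, 89.6 and 97.7 RPKM in WT (-0.16 ± 0.17, limma adjusted p = 0.800). Both overlapped between groups, and a gene-level value cannot show a shift between isoforms of Arhgap1.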

How the data were processed

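Poly(A) RNA of LSK cells was measured in 8 libraries, grouped by title and genotype in the labels. The deposited values are RPKM, made by the authors; the unit is inferred from the values. TopHat, edgeR and build mm9 are named per the submitters' processing notes. Versions, the counter and the annotation were not given in the sources used here. Names came from a RefSeq table (24029 of 24112 IDs matched).

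RPKM are not counts, so limma 3.58.1 (R 4.3.3) was fitted to log2(RPKM + 1) of the 11276 genes that reached 1 RPKM in 4 or more libraries, with robust, trended variance moderation, and p-values were adjusted over all of them by Benjamini-Hochberg. Differences are KO minus WT ± SE, and levels mean ± SD. Fold changes on this scale understate those of low genes.

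Depth was estimated from steps between low values: 49.5% to 69.4% of 44 to 92 values per library were whole reads within 0.03 reads, too few to recover counts. No intervals for counting error are given.

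The members and lists were chosen with earlier results of these data known. Values in every library were given for Hnrnpa1, members with an unadjusted p under 0.05 or without overlap, and the 2 of highest level per role; others were chosen after their values were seen. Same-numbered KO and WT libraries did not deviate together. Replicates were compared for repeated deposits, and equal values were found in no more than 6.86% of tested genes, values of 0 included (KO3 and KO4). Alternatives were the filter, pseudocount 0.1, quantile normalization, lane, replicate block, library weights, threshold and leaving out each library.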

Additional observations from a re-analysis of the deposited data

Results flagged for a closer look

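3 of 78 groups of 4 libraries held a library far from the other 3, where chance gives about 1 in 20 groups. Hnrnpl was at 576 RPKM in KO1, against 457 to 466 RPKM in the other KO libraries. Hnrnpc, which binds uridine tracts, was at 196 RPKM in WT4, against 159 to 164 RPKM in the other WT libraries. Hnrnpr was at 13.1 RPKM in WT2, against 19.0 to 19.8 RPKM in the other WT libraries. All 3 genes overlapped between KO and WT.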

How the results depend on the processing

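limma's count of 0 genes called held without a filter, at 5 RPKM, with pseudocount 0.1, quantile normalization, lane as a covariate, the replicate block (0 genes) and an adjusted p under 0.1; it was 2 in lane 4 alone, 164 with library weights and 0 to 2 on leaving out a library (2 without KO3). Members called were 0 in all of these but library weights (1, Srsf6). With weights and an adjusted p under 0.1 there were 4 of 39, as Hnrnpa1 (0.0559), Srsf3 (0.0941) and Sf3b1 (0.0997) also passed in limma. The share of all genes at that threshold is not given here. Members without overlap were 13 of 39 in lane 4 alone (24.2% of all genes) and 1 to 5 of 39 on leaving out a library (8.02% to 12% of all genes). Leaving out libraries can only keep or raise such counts. The cause of the shifts in genes called was not tested. With lane 4 alone and weights the KO side rests on fewer libraries. The members' median difference stayed between -0.07 and 0.04. Signs turned in 0 to 11 members per setting, all with a difference below its SE over all 8 libraries; some exceeded their SE after turning, as U2af1 did in lane 4 alone (0.52 ± 0.28). The replicate numbers name libraries only: deviations of same-numbered libraries correlated at -0.08 to -0.04, and under the replicate block 1 member had an unadjusted p under 0.05, against 3 without it. Depth is an estimate, and 4 libraries a group bound 36 of 39 members within 2-fold and 15 within 1.5-fold.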
